A study of Homo sapiens with 24 samples.

Results

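MT-CO2 and MT-CO3 are the mitochondrially encoded mRNAs of cytochrome c oxidase subunits 2 and 3. They were taken by gene name from a table of 37 mitochondrial transcripts and 15416 positions, of which they make up 2 transcripts and 1468 positions, or 2 of the 13 mRNAs. The table came from human embryonic kidney (HEK293T Flp-In T-REx) cells: MRM1 KO, MRM2 KO and MRM3 KO lines, each lacking 1 mitochondrial ribose 2′-O-methyltransferase, and the parental line, with 3 replicates of 1 culture plate each per line. RNA from enriched mitochondria was fragmented by alkaline hydrolysis, ligated to an adapter and split, so that each replicate gave 1 library reverse transcribed with 2 μM dNTPs and 1 with 500 μM dNTPs, 24 libraries in all. The MRM2 KO line was made with zinc finger nucleases and cloned from single cells, and the MRM1 KO and MRM3 KO lines are listed as gifts, with no account of how they were made. The labels give serum and uridine supplements for the generated knock-out cells, so clone, medium and genotype cannot be told apart. The genotype entry of 18 of the 24 samples named another line than the sample title. The titles, with which the headings of the table fit, were used to assign each library to its line. The MRM genes are nuclear and absent from the table, but the 3 sites in MT-RNR2, the 16S rRNA, that the enzymes are known to methylate allowed a check of the titles. At the MRM1 site the RT-stop score, the log2 ratio of RT stops at low over high dNTPs, was -0.87 to 0.17 in MRM1 KO and 5.02 to 5.98 in all other libraries. At the MRM3 site it was 1.13 to 1.88 in MRM3 KO and 5.45 to 6.63 in all others. At the MRM2 site, next to that of MRM3, it was 0.071 to 0.81 in MRM2 KO and -0.29 to 0.45 in MRM3 KO, and 1.91 to 3.07 in MRM1 KO and parental libraries. The RT-stop score is 1 value per pair of libraries. The cleavage protection score, a second measure of ribose methylation, comes from the 500 μM libraries alone. It was 0 in MRM1 KO and 0.39 to 0.63 in all others at the MRM1 site. At the MRM3 site it was 0.0055 to 0.16 in MRM3 KO and 0.78 to 0.93 in all others. At the MRM2 site it was 0 in MRM2 KO and MRM3 KO and 0.24 to 0.37 in the rest. Each pair of libraries thus had the pattern of the line in its titles.

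Cytochrome c oxidase, complex IV of the respiratory chain, passes electrons from cytochrome c to oxygen. Its catalytic core is built from MT-CO1, which holds the haem centres, MT-CO2, which carries the copper site that accepts electrons from cytochrome c, and MT-CO3, which stabilises the core. The 3 mRNAs are cut from one long transcript of the heavy strand, largely at the tRNAs that lie between the genes, and are translated by mitochondrial ribosomes, whose large-subunit rRNA is the known substrate of MRM1, MRM2 and MRM3.

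MT-CO2 (ENSG00000198712.1, transcript ENST00000361739.1) spans 684 nucleotides at chrM:7586-8269, and MT-CO3 (ENSG00000198938.2, transcript ENST00000362079.2) spans 784 nucleotides at chrM:9207-9990, both on the + strand of GRCh38. Each is a single exon. The edges of both are shown because much of what follows concerns fragments that begin at the first nucleotides. Capitals mark the mRNA as annotated and lower case the neighbouring sequence, 5′ to 3′, at chrM:7571-7600, chrM:8255-8284, chrM:9192-9221 and chrM:9976-10005.
MT-CO2 5′ edge: atcctatatatcttaATGGCACATGCAGCG
MT-CO2 3′ edge: GTATTTACCCTATAGcaccccctctacccc
MT-CO3 5′ edge: gcacgacaacacataATGACCCACCAATCA
MT-CO3 3′ edge: ATTGATGAGGGTCTTactcttttagtataa
Both mRNAs began with the start codon. MT-CO2 follows MT-TD, the tRNA for aspartate, without a gap, and 25 nucleotides lie between its annotated end and MT-TK, the tRNA for lysine. MT-CO3 follows MT-ATP6 with no tRNA between them, and the nucleotide at 9207 belongs to both annotations. Its annotated end touches MT-TG, the tRNA for glycine. The base composition of both was alike, with 28.7% A, 31.3% C, 14.9% G and 25.2% T in MT-CO2 and 26.8% A, 31.8% C, 14.8% G and 26.7% T in MT-CO3.

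Reads of a transcript were the 5′ ends of its fragments, summed over its positions. Libraries at 2 μM held 483960 to 4048537 reads and libraries at 500 μM held 162673 to 807322. The MRM2 KO libraries at 500 μM were the shallowest, with 162673 to 194073 reads, and the parental ones the deepest, with 604562 to 807322. The mRNA share at 500 μM was 9.25 to 11.9% in MRM1 KO, 11.8 to 14.5% in MRM2 KO, 17.5 to 22.7% in MRM3 KO and 12 to 13.1% in parental libraries, and the tRNA share was 7.77 to 13.1%, 11.6 to 18.8%, 6.31 to 11.7% and 7.03 to 8.93% in the same order. These shares move with the line, so each change below is given on 2 scales: relative to all 37 transcripts and relative to the mRNAs alone. Reads carried no molecular identifiers, so precision from depth covers counting error only, and the p-values measure the spread between culture plates. In bulk RNA of this kind fewer cells, fewer mitochondria and less RNA in each cannot be told apart.

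Per unit length, both mRNAs were among the 4 highest of the 13 in each line at 500 μM. MT-CO2 averaged 19407 ± 2111 RPKM (reads per kilobase of transcript per 1e6 reads of the library) in MRM1 KO, 18678 ± 1178 in MRM2 KO, 28821 ± 4086 in MRM3 KO and 22674 ± 827 in parental cells (SD, n = 3 each). MT-CO3 averaged 13908 ± 1935, 23130 ± 1598, 28460 ± 2854 and 15870 ± 652 RPKM in the same lines. MT-CO2 was therefore above MT-CO3 by more than the SDs in MRM1 KO and parental cells, below it in MRM2 KO cells, and within the SD of it in MRM3 KO cells. Ranked from the highest of the mRNAs, MT-CO2 was at rank 2, 4, 2 and 2 and MT-CO3 at rank 4, 2, 3 and 4 in MRM1 KO, MRM2 KO, MRM3 KO and parental cells.

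In MRM2 KO cells MT-CO2 was lower on both scales, while MT-CO3 took a larger part of the mRNA reads. MT-CO2 made up 9.37, 10.2 and 9.60% of mRNA reads in the MRM2 KO libraries at 500 μM and 12.2, 12.3 and 12.4% in the parental ones. MT-CO3 made up 13.4, 14.4 and 13.7% in MRM2 KO and 9.88, 9.87 and 9.91% in parental libraries. The members lay on opposite sides of their parental shares in each MRM2 KO library. How many of the 13 mRNAs lay apart from their parental shares is not given here. Relative to all transcripts, MT-CO2 fell by 1.01 on the log2 scale (SE 0.320, edgeR quasi-likelihood test with Benjamini-Hochberg adjustment, adjusted p = 0.0134). For MT-CO3 the log2 change was -0.18 (SE 0.317, edgeR adjusted p = 0.752), and with total reads it turned to 0.54 (edgeR adjusted p = 0.00760). In this comparison 5 of 37 transcripts, 13.5%, were called, all lower. Without parental replicate 1 the MT-CO2 call was lost (-1.01, edgeR adjusted p = 0.0551), and scaled to total reads its change was -0.28 and not called. Among the mRNAs alone MT-CO2 fell by 0.62 (SE 0.0477, edgeR adjusted p = 9.59e-09) and MT-CO3 rose by 0.20 (SE 0.0404, edgeR adjusted p = 0.00025), where 84.6% of the 13 mRNAs were called. The median log2 change of the 13 mRNAs was 0.20 on this scale and -0.18 relative to all transcripts. MT-CO3 thus stood at the median mRNA on both scales. Shares of mRNA reads sum to a fixed total, so a lower share of one mRNA raises those of others. MT-CO1 made up 35.2 to 35.5% of mRNA reads in parental libraries and 23.8 to 25.05% in MRM2 KO libraries. With DESeq2 the MT-CO3 value among the mRNAs was 0.10 and not called (adjusted p = 0.207). Under DESeq2, total mRNA reads and a replicate block, the MT-CO2 value among the mRNAs ran from -0.72 to -0.34. That of MT-CO3 ran from 0.10 to 0.48. The size of both changes thus depended on the scaling factors.

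In MRM3 KO cells MT-CO2 was again a smaller part of the mRNA reads, and the direction of MT-CO3 depended on the scaling. MT-CO2 made up 9.44, 10.2 and 9.55% of mRNA reads in MRM3 KO libraries at 500 μM, below all parental libraries. MT-CO3 made up 11.6, 10.6 and 10.9%, above all parental libraries. Relative to all transcripts neither passed the test, with log2 changes of 0.19 (SE 0.316, edgeR adjusted p = 0.666) for MT-CO2 and 0.67 (SE 0.318, edgeR adjusted p = 0.0759) for MT-CO3, in a comparison where 40.5% of the 37 transcripts were called. Leaving out MRM3 KO replicate 1 or 2 brought MT-CO3 past the threshold (0.81, edgeR adjusted p = 0.00213, and 0.71, edgeR adjusted p = 0.0365), as did DESeq2 (0.89, adjusted p = 0.0102) and scaling to total reads (0.84, edgeR adjusted p = 0.000202). Among the mRNAs alone, with 61.5% called, MT-CO2 fell by 0.61 (SE 0.0468, edgeR adjusted p = 4.31e-09). Under DESeq2, total mRNA reads and a replicate block this MT-CO2 value ran from -0.64 to -0.34. MT-CO3 had a change of -0.11 (SE 0.0399, edgeR adjusted p = 0.0215) with TMM factors and of 0.16 (edgeR adjusted p = 0.00099) when scaled to total mRNA reads, and DESeq2 did not call it (-0.14, adjusted p = 0.125).

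In MRM1 KO cells the 2 mRNAs were close to their parental share. MT-CO2 made up 12.8, 12.4 and 12.3% of mRNA reads, overlapping the parental libraries, and MT-CO3 made up 10.1, 10.2 and 10.4%, slightly above them. The log2 changes relative to all transcripts were -0.46 (SE 0.317, edgeR adjusted p = 0.455) and -0.42 (SE 0.317, edgeR adjusted p = 0.481), and 0 of 37 transcripts, 0%, were called (2 at an unadjusted p under 0.05, 0 by DESeq2). Among the mRNAs alone the changes were 0.01 (SE 0.0468, edgeR adjusted p = 0.877) for MT-CO2 and 0.04 (SE 0.0402, edgeR adjusted p = 0.519) for MT-CO3, with 7.69% of the 13 called, and with DESeq2 they were -0.071 and -0.041, neither called.

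**Figure D1:**
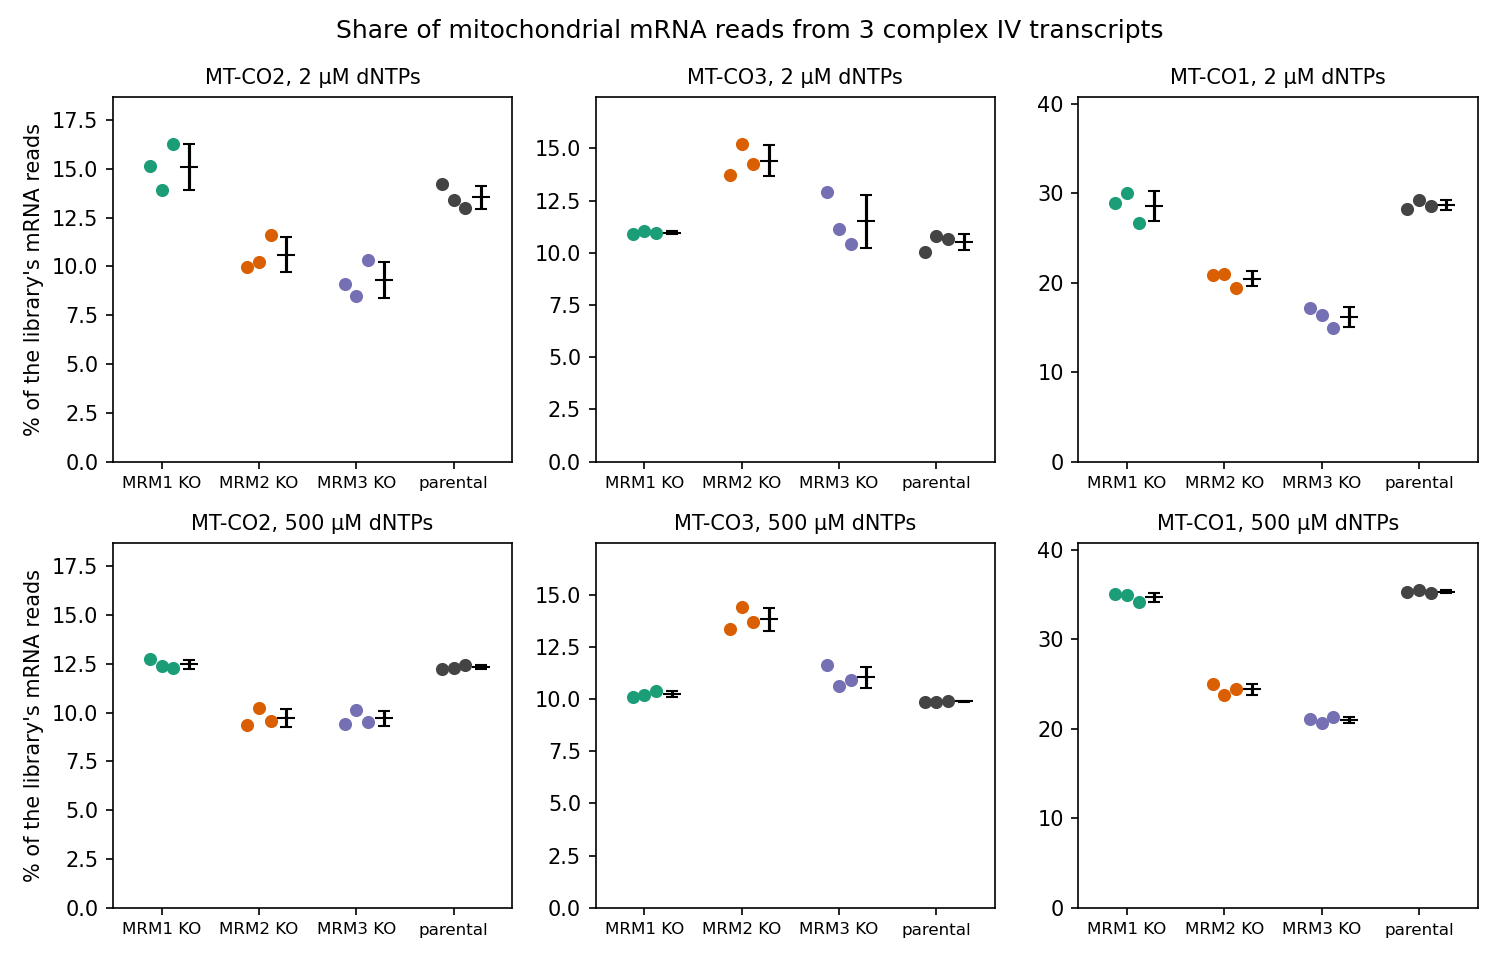
Share of mitochondrial mRNA reads from MT-CO2, MT-CO3 and MT-CO1 mRNAs of complex IV, in % of the library's mRNA reads on the y axis, with 1 point per library and the mean ± SD of 3 beside it. At 500 μM the MT-CO2 points of MRM2 KO and MRM3 KO lie between 9.37 and 10.2%, below the parental points at 12.2 to 12.4%, and the MT-CO3 points of MRM2 KO lie between 13.4 and 14.4%, above the parental points near 9.9%.

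The ratio of the 2 mRNAs within a library does not depend on any scaling between libraries. At 500 μM, MT-CO2 reads divided by MT-CO3 reads came to 1.26, 1.22 and 1.19 in MRM1 KO, 0.702, 0.711 and 0.701 in MRM2 KO, 0.813, 0.958 and 0.876 in MRM3 KO and 1.24, 1.25 and 1.26 in parental libraries. MT-CO2 outnumbered MT-CO3 in each MRM1 KO and parental library, and MT-CO3 outnumbered MT-CO2 in each MRM2 KO and MRM3 KO library. The mean ratio was 0.565-fold the parental one in MRM2 KO (log2 difference -0.82) and 0.706-fold in MRM3 KO (log2 difference -0.50). Neither group overlapped the parental one, which in 3 against 3 libraries is the smallest p an exact permutation test can give (two-sided p = 0.1, adjusted p = 0.113 over 9 ratios). In MRM1 KO the difference was -0.03 with overlapping libraries (exact permutation p = 0.4). The 3 comparisons share the parental libraries. The same ratio from summed coverage differed by -0.86 in MRM2 KO and -0.50 in MRM3 KO.

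The members were also set against MT-CO1, the other mitochondrial mRNA of complex IV and the one with the most reads per kilobase in parental cells at 500 μM. The gap between the log2 differences of the members in a line repeats its MT-CO2 over MT-CO3 result and is not a further finding. MT-CO3 over MT-CO1 was 2.02-fold the parental ratio in MRM2 KO (log2 difference 1.01) and 1.88-fold in MRM3 KO (log2 difference 0.91). MT-CO2 over MT-CO1 was 1.14-fold in MRM2 KO (0.19) and 1.33-fold in MRM3 KO (0.41). In MRM1 KO the differences were 0.07 for MT-CO3 and 0.04 for MT-CO2. All of these groups lay apart from the parental libraries at 500 μM (exact permutation p = 0.1, adjusted p = 0.113). At 2 μM, MT-CO2 over MT-CO1 overlapped the parental libraries in MRM1 KO and MRM2 KO (exact permutation p = 0.2 and 0.3). MT-CO3 over MT-CO1 overlapped them there in MRM1 KO (exact permutation p = 0.3). The other groups stayed apart. Ratios between other transcripts were not tested. MT-CO1 itself fell by 1.19 relative to all transcripts in MRM2 KO (SE 0.303, edgeR adjusted p = 0.00198), where MT-CO2 had -1.01 and MT-CO3 -0.18. In MRM3 KO the 3 values were -0.23, 0.19 and 0.67, of which none passed the test.

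**Figure D2:**
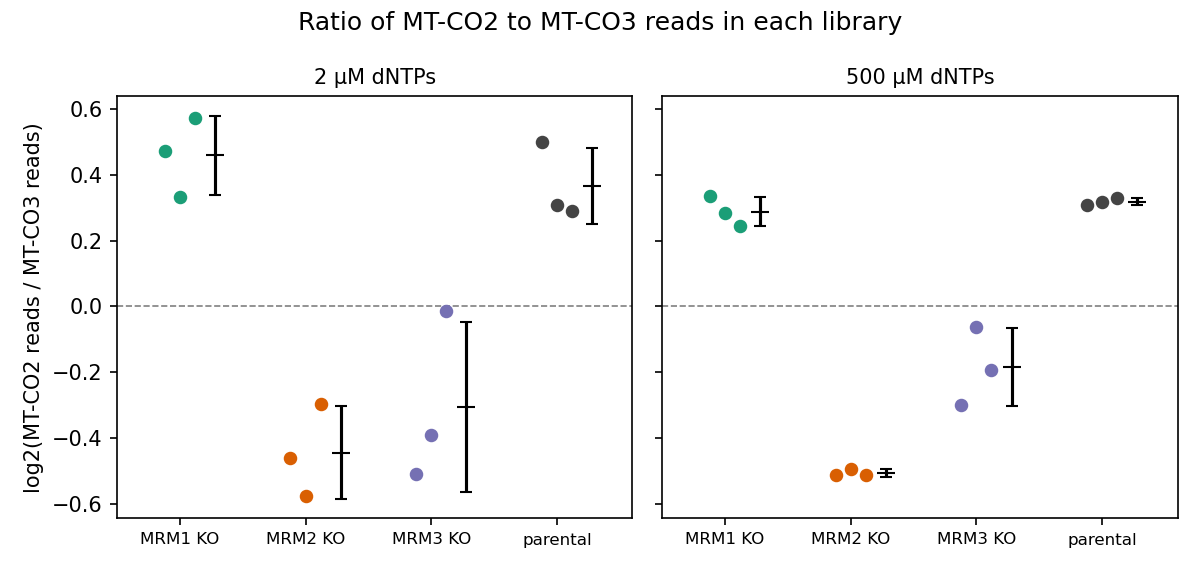
Log2 ratio of MT-CO2 to MT-CO3 reads in each library (points) with the mean ± SD of 3, at 2 μM (left) and 500 μM dNTPs (right). The MRM2 KO and MRM3 KO points lie below 0 and the MRM1 KO and parental points above 0 at both dNTP levels.

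The libraries at 2 μM read the same ligated RNA once more. There MT-CO2 over MT-CO3 was 1.39, 1.26 and 1.49 in MRM1 KO, 0.727, 0.672 and 0.815 in MRM2 KO, 0.704, 0.763 and 0.990 in MRM3 KO and 1.41, 1.24 and 1.22 in parental libraries. The log2 differences from parental were 0.09 in MRM1 KO, -0.81 in MRM2 KO and -0.67 in MRM3 KO (exact permutation p = 0.3, 0.1 and 0.1). The side of 1 on which each line stood was the same as at 500 μM, with more spread between replicates. Among the mRNAs alone MT-CO2 fell by 0.60 in MRM2 KO (SE 0.0779, edgeR adjusted p = 5.67e-06, 76.9% of the 13 called) and by 0.88 in MRM3 KO (SE 0.0778, edgeR adjusted p = 5.23e-08, 84.6% called). Under DESeq2, total mRNA reads and a replicate block these values ran from -0.61 to -0.35 and from -0.88 to -0.54. In MRM1 KO, with 7.69% called, the changes of 0.18 for MT-CO2 and 0.09 for MT-CO3 did not pass (edgeR adjusted p = 0.109 and 0.513). MT-CO3 rose by 0.20 in MRM2 KO (edgeR adjusted p = 0.0384), a call that was lost without MRM2 KO replicate 2 (0.15, edgeR adjusted p = 0.0692), parental replicate 1 (0.17, edgeR adjusted p = 0.127) or parental replicate 3 (0.21, edgeR adjusted p = 0.0776). Its value in MRM3 KO was -0.20 (edgeR adjusted p = 0.0370), which turned to 0.13 with total mRNA reads and was not called by DESeq2 (-0.13, adjusted p = 0.137) or without MRM3 KO replicate 2 or 3 or parental replicate 2 or 3 (-0.20 to -0.11, edgeR adjusted p = 0.0743 to 0.163).

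Relative to all 37 transcripts at 2 μM, neither member passed the test in any line. The MT-CO2 log2 change was -0.22 in MRM1 KO, -1.003 in MRM2 KO and -0.11 in MRM3 KO (edgeR adjusted p = 0.695, 0.0777 and 0.866). For MT-CO3 the log2 change was -0.32, -0.20 and 0.49 (edgeR adjusted p = 0.695, 0.720 and 0.438). The share of transcripts called was 0% in MRM1 KO (0 also at an unadjusted p under 0.05 and by DESeq2), 18.9% in MRM2 KO and 16.2% in MRM3 KO. The MT-CO2 value in MRM2 KO was nearly the same as at 500 μM, with a wider SE of 0.417 in place of 0.320. It passed with DESeq2 (-1.10, adjusted p = 0.0402) and without parental replicate 3 (-1.18).

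Within a line, the 2 μM library was set against the 500 μM library of the same ligated RNA. The MT-CO2 log2 change was -0.06 in MRM1 KO, -0.37 in MRM2 KO, -1.01 in MRM3 KO and -0.32 in parental cells, and passed the test in MRM3 KO (SE 0.192, edgeR adjusted p = 0.000131). The MT-CO3 log2 change was -0.23, -0.44, -0.89 and -0.37, and passed in MRM2 KO (edgeR adjusted p = 0.031) and MRM3 KO (edgeR adjusted p = 0.000114). Of all transcripts, 62.2% were called in MRM1 KO, 62.2% in MRM2 KO, 75.7% in MRM3 KO and 64.9% in parental cells. tRNA shares were higher in the 2 μM libraries, at 32 to 37.3% in MRM1 KO, 38.7 to 59.8% in MRM2 KO, 22.1 to 48.9% in MRM3 KO and 22.6 to 32.4% in parental libraries. None of these calls was kept among the mRNAs alone, where the values were -0.12 for MT-CO2 and -0.0048 for MT-CO3 in MRM3 KO (edgeR adjusted p = 0.196 and 0.932) and -0.0021 for MT-CO3 in MRM2 KO (edgeR adjusted p = 0.970). In MRM1 KO both members passed on this scale instead, as did 9 of the 13 mRNAs in all. Their values were 0.33 for MT-CO2 and 0.16 for MT-CO3 (edgeR adjusted p = 0.00195 and 0.0159). The MT-CO3 call in MRM2 KO was also lost without the ligated RNA as a block (-0.38, edgeR adjusted p = 0.301). Relative to all transcripts, the difference of the dNTP effect between each knock-out and parental cells was called for 0 transcripts, 0% in MRM1 KO, 0% in MRM2 KO and 0% in MRM3 KO (1, 6 and 6 of 37 at an unadjusted p under 0.05 in edgeR, no other tool run). Among the mRNAs alone it was called for MT-ATP8 in MRM1 KO (edgeR adjusted p = 0.0376). In MRM2 KO it was called there for MT-ATP8 and MT-ND2 (edgeR adjusted p = 0.0347 for both). Neither member was called in any line.

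The other genes of the pathway did not share one direction. Relative to all transcripts at 500 μM in MRM2 KO, 2 of 3 complex IV mRNAs, 1 of 7 complex I mRNAs and both rRNAs were lower, and no transcript was higher. With total reads the split was 18 higher and 2 lower. In the MRM3 KO, 5 of 7 complex I mRNAs, MT-CYB of complex III and both ATP synthase mRNAs were higher, whereas 0 of 3 complex IV mRNAs passed the test and 6 of 22 tRNAs were lower. The median log2 change in MRM3 KO was 0.19 for complex IV, 0.99 for complex I, 1.04 for ATP synthase mRNAs and -0.16 over all 37 transcripts. Among the mRNAs alone, 3 of 3 complex IV mRNAs were lower in MRM3 KO with TMM factors (MT-CO3 higher with total mRNA reads), and 2 were lower and 1, MT-CO3, higher in MRM2 KO. Of all 13 mRNAs, 4 were higher and 4 lower in MRM3 KO, and 6 were higher and 5 lower in MRM2 KO.

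The transcripts next to the members had other changes. MT-ATP6, which encodes ATP synthase subunit a and directly precedes MT-CO3, rose by 1.05 in MRM3 KO relative to all transcripts (SE 0.318, edgeR adjusted p = 0.00322), and MT-ATP8, encoded ahead of it, rose by 1.04 (SE 0.286, edgeR adjusted p = 0.00134). In MRM2 KO their values were -0.55 and 0.16 and did not pass. The tRNAs MT-TD and MT-TG fell by 1.06 and 1.00 in MRM3 KO (edgeR adjusted p = 0.0021 and 0.00145), but the groups overlapped. MT-TD stood at 6393, 1721 and 1665 RPKM in MRM3 KO and 5173, 5522 and 4246 in parental libraries, and MT-TG at 17325, 4990 and 5388 RPKM in MRM3 KO and 12204, 16735 and 12451 in parental libraries. MRM3 KO replicate 1 was above all parental libraries in both, and without it the values were -1.65 and -1.49 (edgeR adjusted p = 1.39e-05 and 0.000312). Both calls were lost without MRM3 KO replicate 2 (-0.57 and -0.51, edgeR adjusted p = 0.344 and 0.387) or replicate 3 (-0.54 for both, edgeR adjusted p = 0.425 and 0.442), while those of MT-ATP6 and MT-ATP8 were kept with each library left out. MT-TK had a value of -0.61 (edgeR adjusted p = 0.061) and was called without MRM3 KO replicate 1 (-0.82, edgeR adjusted p = 0.0137). In MRM2 KO none of the 3 tRNAs passed (MT-TD 0.16, MT-TK 0.00, MT-TG -0.45).

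Over the 12 libraries at 500 μM, the log2 level of MT-CO2 followed MT-ND5 (Pearson r = 0.995), MT-RNR1 (0.984) and MT-CO1 (0.951) most closely. MT-CO3 followed MT-CYB (0.965), MT-ATP6 (0.964) and MT-ND4L (0.940). MT-CO2 and MT-CO3 correlated with each other at 0.769, which placed MT-CO3 at rank 7 on the list of MT-CO2 and MT-CO2 at rank 10 on that of MT-CO3. These are descriptions over libraries that share 4 lines and one scaling.

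Along both mRNAs, the 5′ ends of fragments were unevenly spread. At 500 μM the largest shares fell in the first 100 nucleotides of MT-CO2 and, for MT-CO3, in the first 100 nucleotides and in nucleotides 501 to 600. The most used single positions of parental cells showed what lay there: in MT-CO3 they were nucleotides 591, 593 and 592, in a run of U, with 1.77, 1.63 and 1.47% of the transcript's reads, and in MT-CO2 nucleotide 8 with 1.01%, both mRNAs' first 3 nucleotides left aside. The windows are given in the DNA alphabet of the reference at chrM:9787-9807 and chrM:7583-7603, with the counted nucleotide in capitals.
MT-CO3 nucleotide 591: gctcaacattTtttgtagcca
MT-CO2 nucleotide 8: ttaatggcacAtgcagcgcaa
The 1.77% of parental MT-CO3 reads that began opposite nucleotide 591 compared with 0.886% in MRM2 KO cells.

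The number of 5′ ends per window of 100 nucleotides was tested relative to the reads of the transcript, over 138 windows of all transcripts, 7 of MT-CO2 and 8 of MT-CO3. In MRM2 KO 3 of these 15 windows were called, where 7.25% of all windows were. Nucleotides 501 to 600 of MT-CO2 held 5.75, 5.51 and 6.11% of its reads in MRM2 KO and 9.25, 10.2 and 8.41% in parental libraries (log2 change -0.68, SE 0.120, edgeR adjusted p = 0.00948). In MT-CO3 the same stretch held 23.6, 21.7 and 22.6% in MRM2 KO and 29.7, 29.5 and 28.8% in parental libraries (-0.37, SE 0.0788, edgeR adjusted p = 0.0141). Nucleotides 1 to 100 of MT-CO3 held 31.5, 41.8 and 41.3% in MRM2 KO and 22.0, 21.8 and 28.3% in parental libraries (0.67, SE 0.167, edgeR adjusted p = 0.0301). The groups of all 3 windows did not overlap, which is no separate support for windows already called. How many of the 138 windows had groups apart is not given here. The shares of a transcript sum to 1, so a higher share in one window lowers those of the others. Of the MT-CO3 reads that began beyond nucleotide 100, 34.4, 37.2 and 38.6% began in nucleotides 501 to 600 in MRM2 KO and 38.0, 37.7 and 40.2% in parental libraries, which overlapped.

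These window calls depended on single libraries. The MT-CO2 call was lost without MRM2 KO replicate 2 (0 of 7), and the MT-CO3 calls without MRM2 KO replicate 2 or 3 or parental replicate 1 or 2 (0 of 8 each), while without MRM2 KO replicate 1 or parental replicate 3 there were 2 calls in MT-CO2 and 4 in MT-CO3. In MRM1 KO 0% and in MRM3 KO 0% of the 138 windows were called (12 and 10 at an unadjusted p under 0.05, 0 and 0 by DESeq2). Without MRM3 KO replicate 3, 1 window of each member was called in MRM3 KO. At 2 μM no member window of MRM2 KO was called.

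**Figure D3:**
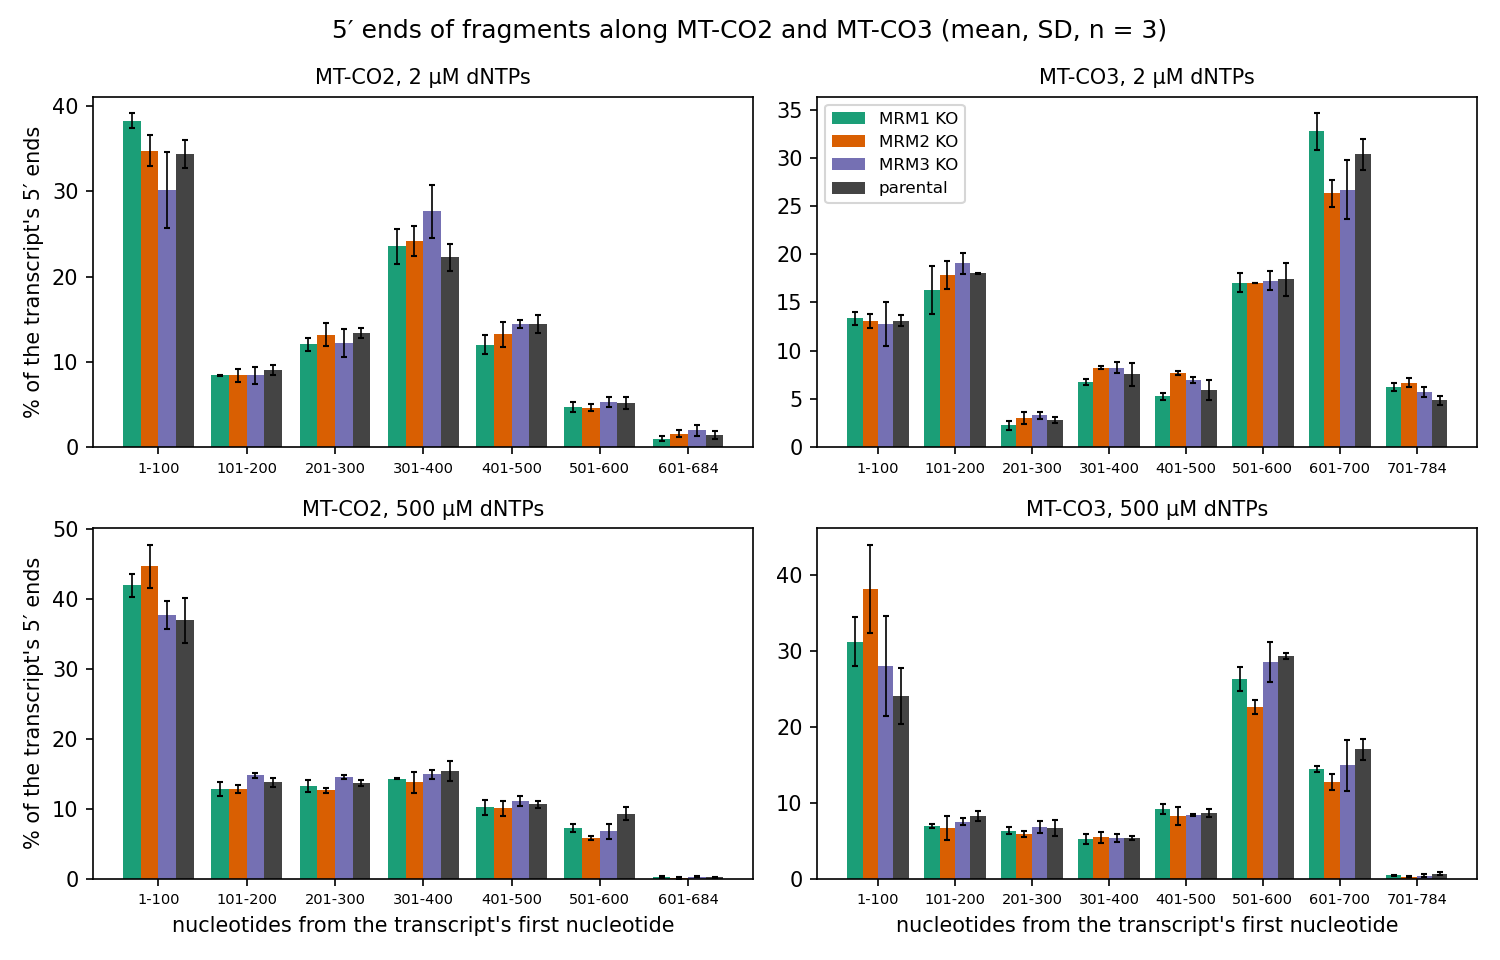
Share of the 5′ ends of MT-CO2 and MT-CO3 fragments in consecutive stretches of about 100 nucleotides, in % of the transcript's 5′ ends, as mean with SD of 3 libraries per line. At 500 μM the MRM2 KO bar is above the parental bar at nucleotides 1 to 100 of MT-CO3 (38.2 against 24.1%) and below it at nucleotides 501 to 600 of MT-CO2 (5.79 against 9.29%), and at 2 μM the bars of these stretches are close.

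Much of the first stretch came from fragments counted as beginning at the first 3 nucleotides, that is, at the AUG shown above. Whether fragments from further upstream were kept or clipped at the edge is not given, so not all of these need be true starts. Of MT-CO2 reads at 500 μM, 23.7, 18.8 and 18.5% began there in MRM1 KO, 18.3, 25.5 and 27.0% in MRM2 KO, 16.2, 16.8 and 9.80% in MRM3 KO and 11.4, 10.9 and 18.5% in parental libraries. Of MT-CO3 reads, 23.1, 19.1 and 15.8%, 20.1, 31.8 and 28.9%, 21.2, 16.6 and 6.82%, and 8.99, 8.96 and 16.2% began there in the same lines. Parental replicate 3 was higher than the other parental libraries in both mRNAs, and MRM3 KO replicate 3 lower than the others of its line. MRM2 KO lay above all parental libraries for MT-CO3 but overlapped them for MT-CO2.

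None of these changes passed the test with all libraries. In MRM2 KO the log2 change was 0.79 for MT-CO2 (SE 0.267, edgeR adjusted p = 0.0720) and 1.24 for MT-CO3 (SE 0.384, edgeR adjusted p = 0.0720), with 5.71% of 35 transcripts called. Without parental replicate 3 both passed, at 1.08 (edgeR adjusted p = 0.0164) and 1.58 (edgeR adjusted p = 0.0234). In MRM1 KO the values were 0.58 and 0.76 (edgeR adjusted p = 0.389 for both), with 0% called (0 also at an unadjusted p under 0.05, no other tool run), and in MRM3 KO they were 0.07 and 0.38 (edgeR adjusted p = 0.909 and 0.745), with 2.86% called. At 2 μM only 0.200 to 0.965% of reads of either mRNA began at the first 3 nucleotides.

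**Figure D4:**
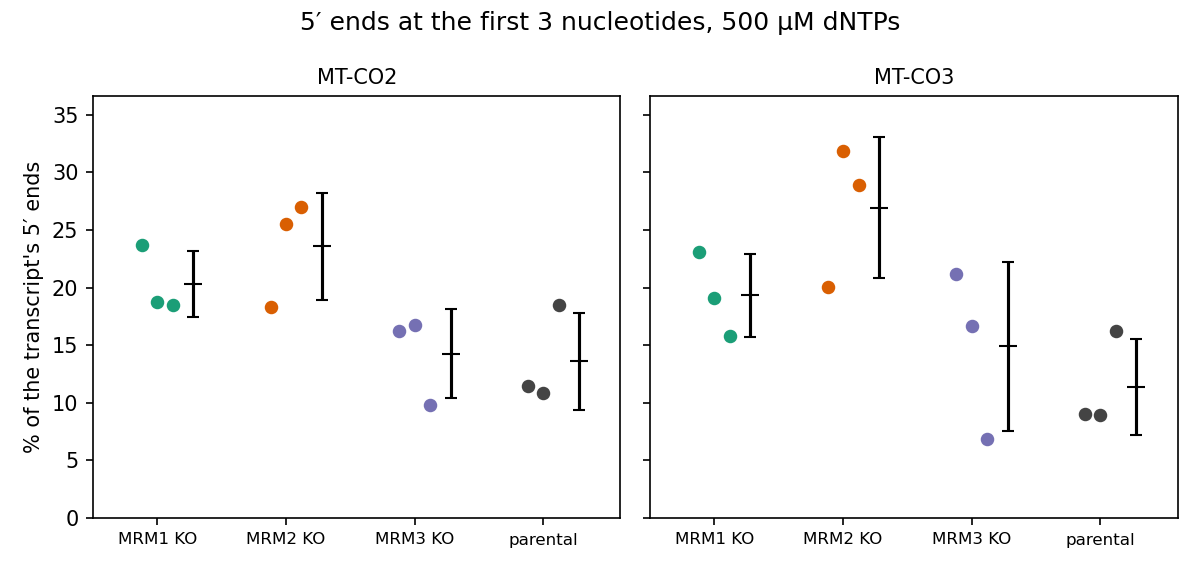
Share of MT-CO2 and MT-CO3 5′ ends that lie at the first 3 nucleotides of the mRNA at 500 μM dNTPs, 1 point per library with the mean ± SD of 3. The MRM2 KO points of MT-CO3 (20.1 to 31.8%) lie above the parental points (8.96 to 16.2%), of which the highest is replicate 3.

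The same libraries stood apart in fragment length. The mean length of MT-CO2 fragments at 500 μM was 134 ± 4.2 nucleotides in MRM1 KO, 140.0 ± 2.3 in MRM2 KO, 131 ± 10 in MRM3 KO and 125.3 ± 8.15 in parental libraries (SD, n = 3 each), and that of MT-CO3 fragments was 133 ± 5.1, 141 ± 0.99, 129 ± 12 and 123 ± 9.5 nucleotides. Parental replicate 3, with 135 nucleotides for MT-CO2 and 134 for MT-CO3, had the longest fragments of the parental libraries, and MRM3 KO replicate 3, with 120 and 116 nucleotides, the shortest of its line. Whether the length of the fragments has a part in the shares at the first nucleotides was not tested.

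In MRM2 KO the log2 change in fragment length was 0.16 for MT-CO2 and 0.20 for MT-CO3 (limma adjusted p = 0.0592 for both, 5.41% of 37 transcripts called), with 95% intervals of ± 0.15 and ± 0.16. Without parental replicate 3 both were called (0.22 and 0.26, limma adjusted p = 0.0122 and 0.0115). In MRM1 KO the values were 0.10 and 0.12 (limma adjusted p = 0.245, 0% called, 2 of 37 at an unadjusted p under 0.05) and in MRM3 KO 0.07 and 0.07 (limma adjusted p = 0.711, 0% called, 1 of 37 at an unadjusted p under 0.05), with no other tool run for either. At 2 μM the fragments of both mRNAs were 55.1 to 58.4 nucleotides long on average in each line.

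RT stops were read as the 5′ ends 1 nucleotide downstream of a position, divided by the coverage there, and the RT-stop score as the log2 of this ratio at 2 μM over that at 500 μM of the same replicate. For the score, 1 was added to both the ends and the coverage. Ribose methylation can stop reverse transcriptase when dNTPs are scarce. With at least 50 reads of coverage in all 24 libraries, 619 positions of MT-CO2 and 636 of MT-CO3 could be tested, among 11971 in all. The median coverage of a member position was 316 to 5678 reads at 2 μM and 406 to 2374 at 500 μM for MT-CO2, and 389 to 3370 and 448 to 1348 for MT-CO3.

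In both mRNAs the score followed the base. In parental cells its median was 1.77 at A, -0.67 at C, -0.36 at G and -0.16 at T (U in the RNA) in MT-CO2, and 1.49, -0.87, -0.51 and -0.23 in MT-CO3. The order was similar over the mRNAs as a whole, with 1.44, -0.87, -0.56 and -0.51. The highest mean scores of parental cells were at nucleotide 569 of MT-CO2 (6.49 ± 0.10) and at nucleotide 61 of MT-CO3 (6.57 ± 1.1), both within a run of G and shown at chrM:8144-8164 and chrM:9257-9277, with the nucleotide in capitals.
MT-CO2 nucleotide 569: acacgaccggGggtatactac
MT-CO3 nucleotide 61: cctaacagggGccctctcagc
At MT-CO2 nucleotide 569, 58.4 to 71.3% of fragments stopped at 2 μM in the knock-out libraries and 52.5, 62.5 and 65.3% in the parental ones. At MT-CO3 nucleotide 61, 45.0 to 63.1% stopped in the knock-out libraries and 48.9, 44.2 and 55.6% in the parental ones. The ranges overlapped. At 500 μM 0 to 0.989% stopped at nucleotide 569 and 0.184 to 0.842% at nucleotide 61, so both sites scored high in all 4 lines. The other 4 high positions of MT-CO2 were all A, at nucleotides 195, 214, 187 and 636 with mean scores of 5.99 to 6.21 in parental cells. Those of MT-CO3 were the A at nucleotides 695, 735 and 97 and the G at nucleotide 298, with 5.41 to 6.57. In the knock-out lines the mean scores of these 8 positions ran from 4.08 to 7.21, and none was called.

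No position of either mRNA was called on the RT-stop score in any knock-out. The test called 1 of 11971 positions in MRM1 KO (0.00835%), 0 in MRM2 KO (0%) and 1 in MRM3 KO (0.00835%), none of them in the members. At an unadjusted p under 0.05 there were 54, 134 and 51 positions of MT-CO2, that is 8.72, 21.7 and 8.24% of those tested in MRM1 KO, MRM2 KO and MRM3 KO, and 50, 75 and 40 of MT-CO3, or 7.86, 11.8 and 6.29%. Over all positions the shares were 7.76, 14.98 and 6.57%. In MRM2 KO the median log2 difference of the score was 0.29 in MT-CO2, 0.32 in MT-CO3 and 0.29 over all positions. This shift depended on the added count: with limma on the ratio at 2 μM the MT-CO2 median in MRM2 KO was 0.44 with 1 added and -0.16 with 0.1 added. The smallest p of a member in each line was at MT-CO2 nucleotide 611, an A, in MRM1 KO (log2 difference -3.16, limma adjusted p = 0.382), at MT-CO3 nucleotide 71, a C, in MRM2 KO (2.58, limma adjusted p = 0.0863) and at MT-CO2 nucleotide 166, a T, in MRM3 KO (2.69, limma adjusted p = 0.322). Stops at MT-CO3 nucleotide 71 in MRM2 KO were not higher at 2 μM (log2 change -0.53, edgeR adjusted p = 0.934). They were lower at 500 μM (-3.38, edgeR adjusted p = 0.00186), so the higher score there went with fewer stops at 500 μM. In edgeR on the stop counts of both dNTP levels the members again had 0 calls, against 0.0501% of all positions in MRM1 KO, 0.66% in MRM2 KO and 0.0835% in MRM3 KO.

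Stops at a single dNTP level were also tested in edgeR, an alternative chosen after seeing the data. At 2 μM, MT-CO2 had 5, 7 and 4 calls in MRM1 KO, MRM2 KO and MRM3 KO and MT-CO3 had 1, 2 and 0, where 1.19, 1.33 and 0.986% of all positions were called. These were 0.808, 1.13 and 0.646% of the tested positions of MT-CO2 and 0.157, 0.314 and 0% of those of MT-CO3. Each share was below that of all positions. Of the MT-CO2 calls 2, 2 and 1 were higher and 3, 5 and 3 lower than in parental cells. Nucleotide 72 of MT-CO2, a T, was among the lower ones: 0.833, 0.728 and 0.539% of fragments stopped there in MRM1 KO, 0.456, 0.365 and 0.282% in MRM2 KO and 1.62, 1.69 and 0.936% in parental libraries (log2 changes -0.99 and -1.90, edgeR adjusted p = 0.04996 and 0.000694). At 500 μM, MT-CO2 had 0, 4 and 1 calls and MT-CO3 0, 9 and 0, where 0.0334, 1.89 and 0.117% of all positions were called. In MRM2 KO these were 0.646% of the tested positions of MT-CO2 and 1.415% of those of MT-CO3, both below the share of all positions. In MRM3 KO the MT-CO2 call was 0.162% of its positions. The 13 member calls of MRM2 KO at 500 μM were all lower than in parental cells, as were 217 of the 226 calls over all positions. The direction turned with limma on the ratio with 1 added, where 49 of 52 calls of MT-CO2 and 11 of 14 of MT-CO3 were higher, and was lower again with 0.1 added, in 6 of 6 and 1 of 1. Nucleotide 590 of MT-CO3, whose stops are the fragments that begin at nucleotide 591 in the run of U shown above, had stops in 3.56, 3.12 and 4.48% of fragments in MRM2 KO and 5.87, 6.63 and 8.26% in parental libraries (log2 change -0.90, SE 0.237, edgeR adjusted p = 0.0147). The groups did not overlap, which is no separate support for a position already called. A further 5 calls of MT-CO3 lay at nucleotides 63 to 92. Likewise, MT-CO2 nucleotide 549, inside the stretch from 501 to 600 described above, had stops in 0.509, 0.312 and 1.75% of fragments in MRM2 KO, 1.02, 1.22 and 1.68% in MRM3 KO and 3.25, 4.58 and 4.10% in parental libraries. It was lower in MRM2 KO (log2 change -2.28, SE 0.488, edgeR adjusted p = 0.000695, on 1 to 5 stops per library) and in MRM3 KO (-1.51, SE 0.335, edgeR adjusted p = 0.00925), with no overlap. That is again no separate support, and how many of all positions had groups apart is not given here.

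MT-CO2 nucleotide 362, an A at chrM:7947, was the only member position called at 2 μM in all 3 knock-out lines, and was singled out after its values were seen. It is shown in capitals within chrM:7937-7957.
MT-CO2 nucleotide 362: ttcaactcctAcatacttccc
At 2 μM, 6.86, 8.77 and 7.25% of fragments stopped there in MRM1 KO, 8.43, 9.56 and 7.35% in MRM2 KO, 11.3, 7.70 and 4.89% in MRM3 KO and 3.95, 3.58 and 3.76% in parental libraries. All 9 knock-out libraries were above the 3 parental ones, but the position was picked on these same values. How many of all tested positions were called in all 3 lines is not given here. The stops behind these values numbered 45 to 299 per knock-out library and 109 to 336 per parental library. The log2 change was 1.02 in MRM1 KO (SE 0.215, edgeR adjusted p = 0.00207), 1.16 in MRM2 KO (SE 0.227, edgeR adjusted p = 0.000246) and 1.04 in MRM3 KO (SE 0.216, edgeR adjusted p = 0.000919). The 3 comparisons share their parental libraries, which are also the deepest at this dNTP level.

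At 500 μM, stops at nucleotide 362 of MT-CO2 were rare and not called, with 0.177 to 1.10% in the knock-out and 0.333 to 0.705% in the parental libraries. The log2 changes there were 0.40, 0.13 and 0.01 in MRM1 KO, MRM2 KO and MRM3 KO. Without MRM3 KO replicate 1 the call in that line was lost (0.70, edgeR adjusted p = 0.159), and with limma on the stop ratio at 2 μM the call remained in MRM2 KO only (adjusted p = 0.308, 0.0346 and 0.351). On the RT-stop score, which combines both dNTP levels, nucleotide 362 was not called. Nucleotide 364, also an A, was called at 2 μM in MRM1 KO (0.67, SE 0.181, edgeR adjusted p = 0.0323).

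**Figure D5:**
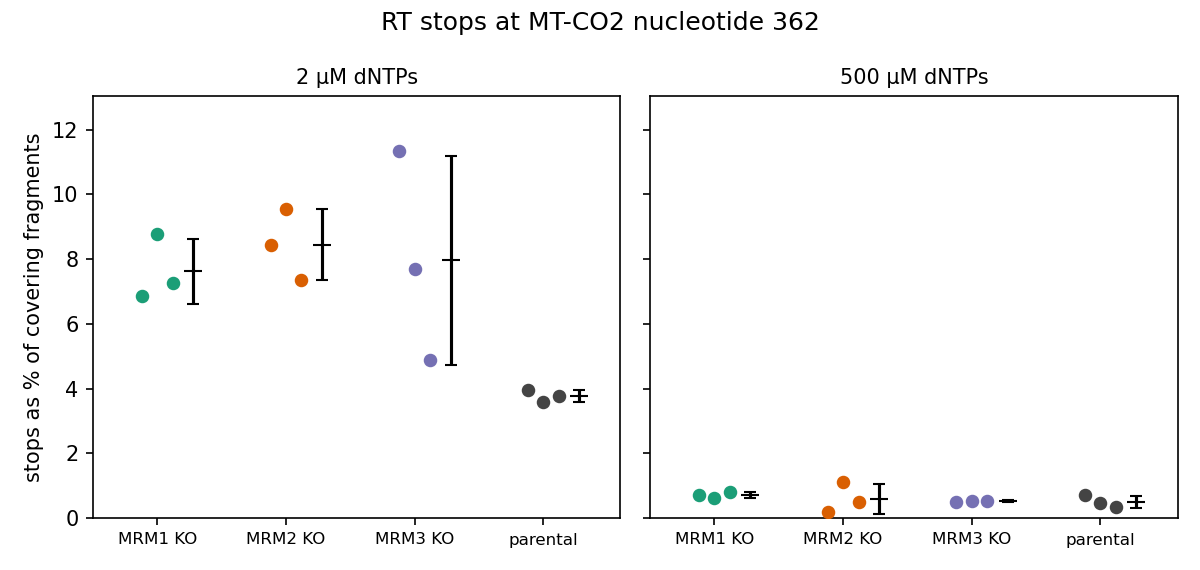
RT stops at MT-CO2 nucleotide 362 as % of the fragments covering it, 1 point per library with the mean ± SD of 3, at 2 μM (left) and 500 μM dNTPs (right). At 2 μM the knock-out points span 4.89 to 11.3% and the parental points 3.58 to 3.95%, and at 500 μM all points lie at or below 1.10%.

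Cleavage protection, the second measure of ribose methylation in the table, covered only part of these mRNAs. It is scored from the 5′ ends around a position in the 500 μM libraries, and no position of MT-CO2 or MT-CO3 had a score in all 12 libraries, against 2196 of 15416 positions overall. In the 3 parental libraries together, 195 of 684 positions of MT-CO2 and 111 of 784 of MT-CO3 were scored, and 9 and 5 of them were above 0 in all 3. A difference between lines on this measure was not tested.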

How the data were processed

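The authors deposited one table with 5′ end counts, 3′ end counts, coverage counts, RT-stop ratios (a fraction per position) and cleavage protection scores for each library. By the submitters' notes and the paper's methods, reads were aligned with STAR 2.5.3a to the mitochondrial chromosome of GRCh38.p13. The columns headed as read ends hold the 5′ ends of fragments: the deposited coverage followed from them in all 35232 member values. Whether fragments crossing a transcript's edge were kept is not given in the sources used here. The deposited RT-stop fractions were recomputed from the counts with 1 added. Columns of the authors' own tests (t and chi-square p-values) were not used.

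Reads per transcript, windows of 100 nucleotides and first 3 nucleotides were tested with edgeR 4.0.16 (quasi-likelihood, TMM, line as the only term, at least 10 reads in 3 libraries; windows and first nucleotides with the transcript's reads as offset). The comparison of dNTP levels kept the ligated RNA as a block. Fragment length and RT-stop scores were tested with limma 3.58.1, ratios with exact permutation tests. P-values were adjusted by Benjamini-Hochberg over all features, with a threshold of 0.05. DESeq2 1.42.0, other scalings, window sizes, added counts, coverage minimums of 20 and 200, omitted replicates and a replicate block were alternatives. The scripts were tested on simulated data, and R 4.3.3 and Python 3.11.15 were used. Named transcripts were the members, MT-CO1, the neighbours and the 3 most correlated with each member. Named positions were the 5 highest of each member in parental RT-stop score and 5′ ends, and the smallest p of each line. Those called on stop counts at 1 dNTP level were added after the values were seen, as were the known MT-RNR2 sites, the MT-CO3 shares beyond nucleotide 100 and the neighbours with each library left out. The members and lists were chosen with earlier results of these data known.

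Replicate numbers of different lines were taken to mark separate plates. Correlations of deviations between knock-out and parental libraries of the same number ran from -0.30 to 0.42 at 500 μM. They ran from -0.69 to 0.11 at 2 μM. With 3 libraries per line these values cannot settle whether plates were paired.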

Additional observations from a re-analysis of the deposited data

How the results depend on the processing

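Of 1047 values computed under an alternative, 804 kept their direction and their side of the threshold (counts and untested values: stayed close), among them 534 of the 651 that answer a comparison. Read changes relative to all transcripts depended on the scaling. The median log2 change over the 37 transcripts at 500 μM was -0.08, 0.01 and -0.16 in MRM1 KO, MRM2 KO and MRM3 KO with TMM factors and 0.19, 0.73 and 0.14 with total reads, and the split of higher to lower calls in MRM2 KO was 0 to 5, 2 to 6 with DESeq2, 18 to 2 with total reads, 1 to 3 with the rRNAs left out and 6 to 5 among the mRNAs alone (8 to 7, 10 to 7, 11 to 3, 8 to 6 and 4 to 4 in MRM3 KO). With total reads, the values were -0.28 for MT-CO2 and 0.54 for MT-CO3 in MRM2 KO, 0.84 for MT-CO3 in MRM3 KO, 0.048 for MT-CO3 in MRM2 KO at 2 μM, and, for 2 against 500 μM, 0.17 for MT-CO2 in MRM1 KO, 0.049 for MT-CO2 and 0.0021 for MT-CO3 in parental cells and -0.0027 for the MT-CO3 difference between MRM1 KO and parental cells. For the mRNAs alone they were 0.011 and 0.041 for MT-CO2 and MT-CO3 in MRM1 KO, 0.20 for MT-CO3 in MRM2 KO, and -0.61 and -0.11 in MRM3 KO at 500 μM, 0.18 and 0.088, -0.60 and 0.20, and -0.88 and -0.20 in the 3 lines at 2 μM, and, for 2 against 500 μM, 0.33 and 0.16 in MRM1 KO (both called), 0.059 for MT-CO2 in MRM2 KO and 0.15 and 0.10 in parental cells. With total mRNA reads MT-CO3 in MRM3 KO turned to 0.16, and to 0.13 at 2 μM. DESeq2 gave 0.89 for MT-CO3 in MRM3 KO, -1.10 for MT-CO2 in MRM2 KO at 2 μM and, among the mRNAs, -0.071 for MT-CO2 and -0.041 for MT-CO3 in MRM1 KO, 0.10 for MT-CO3 in MRM2 KO and -0.14 and, at 2 μM, -0.13 for MT-CO3 in MRM3 KO. With the 6 libraries of the comparison alone MT-CO2 in MRM3 KO was -0.16. The 2 μM libraries gave -1.003 and -0.11 for MT-CO2 in MRM2 KO and MRM3 KO, 0.094, -0.81 and -0.67 for the MT-CO2 to MT-CO3 ratio in the 3 lines, 0.16 and 0.28 for MT-CO2 to MT-CO1 in MRM1 KO and MRM3 KO, 0.94 and 0.95 for MT-CO3 to MT-CO1 in MRM2 KO and MRM3 KO, 0 window calls in either mRNA in MRM2 KO, -0.084, -0.23 and -0.0095 for the first 3 nucleotides of MT-CO2, and -0.018 and -0.030 for fragment length in MRM2 KO and -0.0019 for MT-CO2 in MRM3 KO. Summed coverage gave -0.86 for the ratio in MRM2 KO. Replicate numbers are not known to pair plates between lines. With them as a block, MT-CO3 at 2 μM among the mRNAs was not called in MRM2 KO (0.20) and MRM3 KO (-0.20), 1 window of MT-CO3 was called in MRM2 KO, and no other call of a member changed with this block. Without the ligated RNA as a block MT-CO3 at 2 against 500 μM in MRM2 KO was not called (-0.38), and the MT-CO2 difference between MRM2 KO and parental cells was 0.018. The cause of these shifts was not tested.

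Window calls in MRM2 KO were 2 in MT-CO2 and 4 in MT-CO3 with DESeq2 (17 in place of 10 over all transcripts), 2 in MT-CO2 with windows of 200 nucleotides, and 2 and 1 with windows of 50. For RT stops, edgeR at 2 μM alone called 5 and 1 positions of MT-CO2 and MT-CO3 in MRM1 KO, 7 and 2 in MRM2 KO and 4 of MT-CO2 in MRM3 KO, and at 500 μM alone 4 and 9 in MRM2 KO and 1 of MT-CO2 in MRM3 KO. limma on the ratio at 2 μM called 65 and 7 in MRM2 KO (623 over all positions), and with 0.1 added 1 of MT-CO3 in MRM1 KO and 1 of MT-CO2 in MRM2 KO (3 over all). At 500 μM it called 1 of MT-CO3 in MRM1 KO and 52 and 14 in MRM2 KO, and with 0.1 added 1 of MT-CO3 in MRM1 KO and 6 and 1 in MRM2 KO. On a linear scale 1 position of MT-CO3 was called in MRM2 KO. At MT-CO2 nucleotide 362 limma gave 1.01 in MRM1 KO and 1.00 in MRM3 KO, neither called, and the 500 μM libraries gave 0.40, 0.13 and 0.0089.

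With each replicate left out in turn, the ranges for MT-CO2 and MT-CO3 were as follows. In reads, MT-CO2 in MRM2 KO ran from -1.06 to -0.97 and MT-CO3 in MRM3 KO from 0.55 to 0.81, and at 2 μM MT-CO2 ran from -1.20 to -0.81 in MRM2 KO (called without parental replicate 3, -1.18) and from -0.47 to 0.25 in MRM3 KO. Among the mRNAs, MT-CO2 in MRM1 KO ran from -0.027 to 0.027 and MT-CO3 from -0.0024 to 0.043, MT-CO3 in MRM3 KO from -0.14 to -0.11, and at 2 μM MT-CO2 in MRM1 KO from 0.14 to 0.26 and MT-CO3 from 0.15 to 0.24 in MRM2 KO and from -0.33 to -0.11 in MRM3 KO. Window calls ran from 0 to 2 in MT-CO2 and 0 to 4 in MT-CO3 in MRM2 KO (0 to 35 over all transcripts) and from 0 to 1 in each in MRM3 KO. At the first 3 nucleotides MRM2 KO ran from 0.66 to 1.08 in MT-CO2 and from 1.10 to 1.58 in MT-CO3, and MRM3 KO from -0.070 to 0.35 in MT-CO2. Fragment length in MRM2 KO ran from 0.13 to 0.22 and from 0.16 to 0.26 (0 to 31 transcripts called in place of 2). RT-stop calls of MT-CO2 in MRM1 KO ran from 0 to 1 (1 without MRM1 KO replicate 2), and nucleotide 362 in MRM3 KO from 0.70 to 1.33.

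Counts over all features also moved. Transcripts called at 2 μM in MRM2 KO numbered 7, against 1 with the replicate block and 0 to 1 without MRM2 KO replicate 2 or 3 or parental replicate 1 or 2, and in MRM3 KO 6, against 0 to 12 with single libraries left out and 11 of the mRNAs alone. At 500 μM the MRM2 KO calls numbered 5, against 10 with the 6 libraries alone and 3 to 9 with single libraries left out. For 2 against 500 μM, 24 were called in parental and 23 in MRM1 KO cells, against 15 and 13 without the block, and 7 to 9 of the mRNAs alone in the 4 lines. Windows called in MRM2 KO numbered 10, against 25 with windows of 200 nucleotides and 3 with the replicate block. Transcripts called at the first 3 nucleotides in MRM2 KO numbered 2, against 0 with the replicate block and 0 to 17 with single libraries left out. RT-stop score calls over all positions, 1, 0 and 1 in the 3 lines, numbered 6, 79 and 10 with edgeR, 143, 159 and 118 with edgeR at 2 μM alone and 4, 226 and 14 at 500 μM alone.

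Single positions of the MRM2 KO libraries held few stops at 500 μM, and no interval given here covers more than counting and the spread between plates.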
